A study of Homo sapiens with 8 samples.

Results

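The DNA replication machinery was followed here as 53 listed genes for origin licensing, the replication fork and chromatin assembly, in A549 cells, an established human lung adenocarcinoma line. The genes were given as a list of names and were matched to the Ensembl identifiers of the counts through GENCODE. All 53 passed the filter on low counts, among 18661 genes tested of 60624 listed. The 8 libraries fell into 4 groups of 2: untreated cells, cells given indisulam, cells given SPHINX31, and cells given both (the combination). Indisulam is a sulfonamide that brings the splicing factor RBM39 to a ubiquitin ligase for degradation, and SPHINX31 inhibits SRPK1, a kinase that phosphorylates splicing factors. Per the study's methods the cells received 0.5 µM indisulam, 5 µM SPHINX31 or both for 24 h, whereas the labels of all 8 libraries, the untreated ones included, give 2 µM indisulam and 18 h. The study's methods give 2 µM indisulam and 18 h for a separate experiment in pancreatic cancer cells. Why the labels of these A549 libraries carry those values is not stated, so the dose and time are not settled by the sources used here. The study calls the 2 libraries of a group technical replicates, so p-values measure only the spread between these libraries and not that between independent treatments.

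Replication starts when the origin recognition complex (ORC), with CDC6 and CDT1, loads the ring-shaped MCM2 to MCM7 helicase onto DNA in G1 phase, a step known as licensing that geminin (GMNN) blocks by binding CDT1. In S phase the kinase CDC7 with its activator DBF4, and factors such as CDC45, the GINS complex and MCM10, turn the loaded rings into active helicases. Polymerase alpha-primase then lays down primers, polymerases epsilon and delta copy the leading and lagging strands on the sliding clamp PCNA, and histones are put back behind the fork. Many of these genes are transcribed in waves of the cell cycle under E2F factors, so their RNA is abundant in dividing cells.

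The libraries held 51727369 to 63186989 counts on genes (median 57337791). A chi-square test of the counts of 2 libraries of a group gave 6.59 to 10.7 per degree of freedom, so none was a copy. Levels are given as counts per 1000000 counts on genes (CPM), scaled with edgeR's TMM factors, in the order of replicate 1 and replicate 2. The epithelial keratins KRT8 and KRT18 reached 4019 and 3980 CPM (without TMM factors, as for all marker levels). Of 8 markers of alveolar type II cells, SFTPB was at 0 in every library, NKX2-1 did not exceed 0.182 CPM, SFTPA1, SFTPA2, SFTPC and SFTPD did not exceed 0.307 CPM and LAMP3 did not exceed 1.08 CPM, whereas ABCA3 reached 98.0 CPM. RBM39 RNA, which does not measure the protein, was higher with indisulam (log2 fold change 1.22, SE 0.0553) and with the combination (1.298, SE 0.0553), and the change of 0.17 with SPHINX31 did not pass the test (adjusted p = 0.0690).

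Per kilobase of exon, the levels in untreated cells spanned a wide range. Values in this paragraph are CPM divided by the kilobases of the union of a gene's annotated exons (RPKM), as mean ± SD of 2 libraries; exons outside the expressed isoform lower a value. PCNA, the sliding clamp, was highest at 202 ± 5.15, and MCM7 followed at 72.0 ± 1.82. The other subunits of the loaded helicase stood at 47.5 ± 0.555 for MCM3, 36.9 ± 0.256 for MCM2, 27.8 ± 0.0766 for MCM6, 26.0 ± 0.199 for MCM4 and 17.3 ± 0.197 for MCM5. These 6 proteins act in a ring with 1 copy of each, and these values were unequal beyond the spread between libraries. That spread does not cover the choice of exon length. The union of exons has 9852 bases for MCM4, 7268 for MCM5 and 3645 for MCM3, while their main transcripts have 4062, 3458 and 3068. The order of the 6 genes is therefore not settled by these values. The ORC subunits lay lower, from 2.86 ± 0.0777 for ORC4 to 11.5 ± 0.0147 for ORC1. Within the GINS complex GINS2 stood at 12.6 ± 0.237 and GINS3 at 3.63 ± 0.00541. The catalytic subunit POLA1 was at 5.25 ± 0.340 and the primase subunit PRIM1 at 9.89 ± 0.553. On this measure CLSPN at 2.86 ± 0.262 and ORC4 did not differ beyond their spread, nor did POLA1 and POLE2, at 5.17 ± 0.384. Such likeness depends on the lengths used. The union of exons has 15547 bases for POLA1 and 2942 for POLE2, and their main transcripts have 5487 and 1692. POLA2, the accessory subunit of polymerase alpha, was lowest at 0.489 ± 0.0235, but 2012 of its exonic bases overlap another annotated gene on the same strand (ENSG00000285816), and MCM8 shares 2564 bases in the same way with ENSG00000286235. Reads in such overlaps may have been left out as ambiguous, so that the levels of POLA2 and MCM8 are uncertain. The same limit holds for TIPIN, which shares 579 bases with RPL9P25, for PRIM1, which shares 139 with NACA and 362 with ENSG00000285625, and for POLD1, which shares 426 with ENSG00000142539. Shorter overlaps on the same strand were 123 bases in POLD3, 89 in CHAF1B, 49 in FEN1 and 29 in MCM7. Genes on the opposite strand overlap others, such as GINS4 (1145 bases), MCM2 (1113), GINS3 (558) and GINS1 (259). Those overlaps would matter only if the reads were counted without regard to strand.

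Indisulam moved the replication genes in both directions. 15 of the 53 were called higher and 16 lower (edgeR's quasi-likelihood test, Benjamini-Hochberg adjusted p under 0.05), while 20.1% of all tested genes were called higher and 23.5% lower. Either call was made for 58.5% of the replication genes and for 43.7% of all tested genes. Among the 10692 genes at or above the level of the lowest replication gene that share was 51.9%, so that the members' count lay near the background. The median log2 fold change was 0.02 over the 53 genes and -0.00 over all genes. With the combination, 8 were higher and 21 lower, against 23.8% and 26.3% of all tested genes, and the median was -0.09. At or above the level of the lowest replication gene the shares were 27.1% higher and 31.5% lower. Both libraries of the treated group lay above both untreated ones in 25 of the 53 genes with indisulam and below in 22, where 35.9% and 37.3% of all genes did so. With the combination these numbers were 18 and 29, against 37.6% and 38.2% of all genes. In bulk RNA, fewer cells in S phase and less RNA per cell cannot be told apart.

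**Figure D1:**
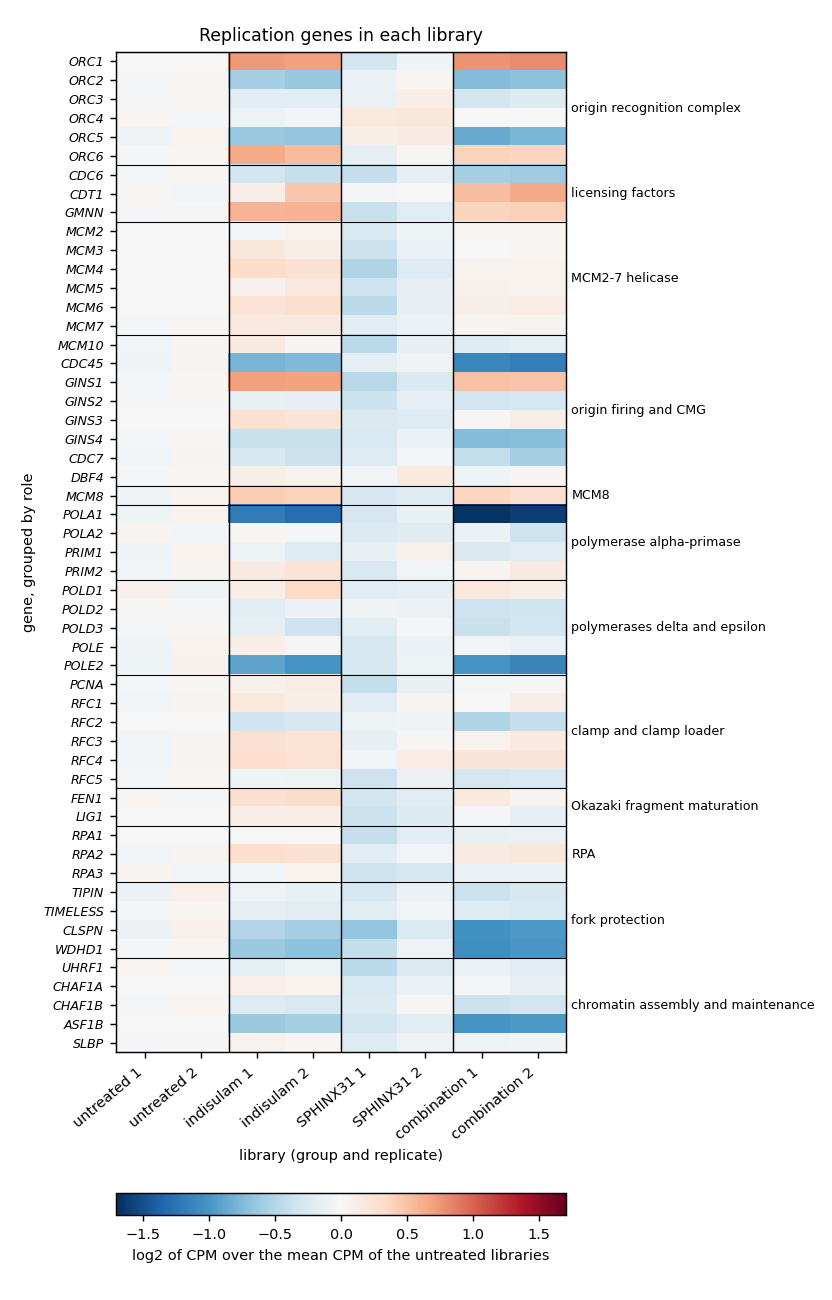
Level of each of the 53 replication genes (rows, grouped by role) in each of the 8 libraries (columns), as the log2 of its CPM over the mean CPM of the untreated libraries, red above and blue below. POLA1, CDC45 and POLE2 are blue in all 4 libraries with indisulam, ORC1 and GINS1 are red there, and the SPHINX31 replicate 1 column is bluer than that of replicate 2 in nearly every row.

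The 6 ORC subunits went apart. ORC1, whose protein rises in G1 phase and which recruits the others to origins, had 35.8 and 35.8 CPM in untreated cells, 58.9 and 58.3 with indisulam, 28.7 and 33.9 with SPHINX31, and 60.8 and 62.3 with the combination. Both groups with indisulam lay well above the other 2, with log2 fold changes of 0.71 (SE 0.0691, adjusted p = 3.11e-06) with indisulam and 0.78 (SE 0.0689, adjusted p = 8.49e-07) with the combination. ORC6, the smallest subunit, had 24.3 and 25.6 CPM in untreated cells, 38.8 and 36.1 with indisulam, 22.7 and 25.4 with SPHINX31, and 32.6 and 32.2 with the combination. It was thus higher in both groups with indisulam, by 0.59 (SE 0.0687) and 0.38 (SE 0.0689) on the log2 scale, and overlapped with untreated cells under SPHINX31. ORC5, an ATPase subunit, had 35.9 and 38.8 CPM in untreated cells, 24.02 and 23.5 with indisulam, 40.5 and 41.0 with SPHINX31, and 20.6 and 21.8 with the combination. Its level was lower in every library with indisulam (log2 fold change -0.65, SE 0.0629, and -0.82, SE 0.0632, with the combination). ORC2, which forms the core of the complex with ORC3, had 39.8 and 41.6 CPM in untreated cells, 27.4 and 26.2 with indisulam, 38.0 and 41.8 with SPHINX31, and 24.5 and 25.1 with the combination. The groups with indisulam did not overlap with the others (log2 fold change -0.60, SE 0.0644, and -0.72, SE 0.0646). For ORC3 and ORC4 the differences with indisulam, -0.18 and -0.06, did not pass the test. ORC3 was called lower with the combination (-0.27, adjusted p = 0.00797), but not without untreated replicate 2 (-0.23) or combination replicate 1 (-0.22).

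Among the licensing factors, CDC6, the ATPase that loads the helicase with ORC, was lower with indisulam (log2 fold change -0.36, SE 0.0734) and with the combination (-0.58, SE 0.0737). CDT1, its partner, had 52.9 and 50.04 CPM in untreated cells, 55.5 and 70.7 with indisulam, 50.2 and 51.8 with SPHINX31, and 73.9 and 80.1 with the combination. The indisulam libraries of CDT1 differed widely from each other, so that its log2 fold change of 0.29 (adjusted p = 0.0168) lost the call without indisulam replicate 2 (0.12) or untreated replicate 2 (0.25), and that of 0.58 with the combination did not. GMNN, the inhibitor of CDT1, had 28.5 and 29.5 CPM in untreated cells, 43.3 and 43.8 with indisulam, 22.4 and 25.4 with SPHINX31, and 37.7 and 38.6 with the combination. Its 4 libraries with indisulam lay above all others, and the log2 fold changes were 0.59 (SE 0.0653, adjusted p = 1.00e-05) and 0.39 (SE 0.0655, adjusted p = 0.000229).

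The 6 subunits of the MCM2 to MCM7 ring changed little with indisulam, from a log2 fold change of 0.02 for MCM2 to 0.29 for MCM4. MCM4 had 254 and 257 CPM in untreated cells, 317 and 306 with indisulam, 179 and 220 with SPHINX31, and 266 and 266 with the combination. Its indisulam libraries were the highest and its SPHINX31 libraries the lowest, without overlap (adjusted p = 0.00593 for indisulam). MCM6 and MCM7 were also called higher, by 0.25 and 0.16. Their calls were lost without untreated replicate 1 (0.26 and 0.14), that of MCM6 without untreated replicate 2 (0.25) and that of MCM7 without indisulam replicate 1 (0.15). None of the 6 was called with the combination, where the values lay between 0.01 for MCM3 and 0.11 for MCM6. MCM8, a relative that acts with MCM9 in recombination repair rather than in the ring, had 17.2 and 18.8 CPM in untreated cells, 24.4 and 23.7 with indisulam, 14.7 and 15.4 with SPHINX31, and 23.2 and 21.9 with the combination. It was higher with indisulam (log2 fold change 0.42, SE 0.0700) and with the combination (0.32, SE 0.0700), with the uncertainty of its shared exons.

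The factors that turn the loaded ring into a working helicase split most clearly within the GINS complex, whose 4 proteins act as a unit with CDC45. GINS1 had 58.1 and 59.2 CPM in untreated cells, 95.1 and 94.3 with indisulam, 42.3 and 49.7 with SPHINX31, and 82.7 and 82.0 with the combination. GINS4 had 43.1 and 44.5 CPM in untreated cells, 33.7 and 33.9 with indisulam, 36.7 and 40.8 with SPHINX31, and 26.3 and 26.6 with the combination. Thus GINS1 was higher with indisulam (log2 fold change 0.69, SE 0.0656, adjusted p = 2.54e-06) and GINS4 lower (-0.38, SE 0.0620, adjusted p = 0.000291), each with no overlap between the groups. GINS3 was called higher with indisulam (0.24), but not without untreated replicate 1 (0.24), untreated replicate 2 (0.24) or indisulam replicate 1 (0.22), and GINS2 stood at -0.14 (adjusted p = 0.126). With the combination GINS1 remained higher (0.49, SE 0.0656), GINS4 was lower (-0.73, SE 0.0628), GINS2 was lower (-0.31, SE 0.0689) and GINS3 stood at 0.06. CDC45 had 30.7 and 33.0 CPM in untreated cells, 18.4 and 19.0 with indisulam, 28.5 and 30.6 with SPHINX31, and 14.7 and 14.1 with the combination. Its combination libraries were the lowest of all, and the log2 fold changes were -0.77 (SE 0.0682, adjusted p = 1.39e-06) with indisulam and -1.14 (SE 0.0694, adjusted p = 2.84e-08) with the combination. The kinase CDC7 was lower in both comparisons (-0.32, SE 0.0787, and -0.49, SE 0.0790), whereas its activator DBF4 stood at 0.08 and -0.01 and MCM10 at 0.10 and -0.18, none of which passed the test.

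The largest decrease of a replication gene was in POLA1, the catalytic subunit of polymerase alpha (ENSG00000101868, chromosome X of GRCh38, 24693873 to 24996986). It had 77.9 and 85.3 CPM in untreated cells, 35.7 and 33.3 with indisulam, 66.7 and 74.5 with SPHINX31, and 25.8 and 26.9 with the combination. Its libraries with indisulam lay below all others, with log2 fold changes of -1.24 (SE 0.0695, adjusted p = 2.43e-08) and, with the combination, -1.63 (SE 0.0707, adjusted p = 1.59e-09). The partners of POLA1 in the same complex were not called with indisulam: POLA2, PRIM1 and PRIM2 stood at 0.00, -0.15 and 0.19. The values of POLA2 and PRIM1 carry the uncertainty of their shared exons. With the combination PRIM1, which makes the RNA primer, was called lower (-0.22, adjusted p = 0.0328), but not without untreated replicate 2 (-0.15), combination replicate 1 (-0.17) or combination replicate 2 (-0.25). POLE2, the second subunit of the leading-strand polymerase epsilon, had 14.4 and 16.0 CPM in untreated cells, 8.15 and 7.52 with indisulam, 12.6 and 14.3 with SPHINX31, and 7.56 and 6.95 with the combination. It was lower without overlap in both groups with indisulam (log2 fold change -0.95, SE 0.0941, and -1.07, SE 0.0944), while its catalytic partner POLE stood at 0.07 and -0.07, neither called.

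The subunits of the lagging-strand polymerase delta moved less and in both directions. POLD2 had 207 and 202 CPM in untreated cells, 179 and 191 with indisulam, 192 and 190 with SPHINX31, and 160 and 161 with the combination. Its treated libraries all lay below the untreated ones, and it was called lower with indisulam (-0.14, adjusted p = 0.0307) and with the combination (-0.35, SE 0.0489). The indisulam call of POLD2 was lost without untreated replicate 1 (-0.12), untreated replicate 2 (-0.16) or indisulam replicate 1 (-0.09). The catalytic POLD1 was called higher with indisulam (0.23), but not without untreated replicate 2 (0.16) or indisulam replicate 2 (0.13), and stood at 0.14 with the combination. POLD3 was called lower with indisulam (-0.24), but not without untreated replicate 2 (-0.20) or indisulam replicate 2 (-0.14), and was lower with the combination (-0.36, SE 0.0733).

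PCNA itself was not called with indisulam (0.11) or the combination (-0.00). Of the 5 subunits of replication factor C, which opens and loads the clamp, RFC2 was lower with indisulam (-0.30, SE 0.0551) and with the combination (-0.46, SE 0.0552). RFC4 had 43.2 and 45.8 CPM in untreated cells, 54.4 and 52.8 with indisulam, 43.2 and 48.4 with SPHINX31, and 51.7 and 51.9 with the combination. It was higher with indisulam (0.27, SE 0.0628) and with the combination (0.22, adjusted p = 0.0105), the latter not without untreated replicate 1 (0.18). RFC3 was called higher with indisulam (0.24), but not without untreated replicate 1 (0.20). RFC5 was lower with the combination (-0.28, adjusted p = 0.00492) and stood at -0.08 with indisulam (adjusted p = 0.391), and RFC1 was called in neither. The flap endonuclease FEN1, which trims Okazaki fragments, had 83.8 and 80.6 CPM in untreated cells, 99.1 and 102 with indisulam, 66.2 and 72.7 with SPHINX31, and 92.6 and 85.0 with the combination. Its groups did not overlap, and it was higher with indisulam (0.29, SE 0.0602, adjusted p = 0.00172), while the ligase LIG1 stood at 0.10 and was not called. Of the single-strand binding protein RPA, RPA2 had 37.5 and 39.9 CPM in untreated cells, 47.0 and 46.3 with indisulam, 34.3 and 37.5 with SPHINX31, and 42.8 and 44.3 with the combination. RPA2 was higher with indisulam (0.27, SE 0.0613) and with the combination (0.17, adjusted p = 0.0350), the latter not without untreated replicate 1 (0.13), combination replicate 1 (0.20) or combination replicate 2 (0.14). RPA1 and RPA3 stood at 0.00 and 0.01 with indisulam.

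Of the 4 fork protection factors, 3 were called lower with indisulam and 4 with the combination. Of all tested genes, 23.5% and 26.3% were called lower in these comparisons. At or above the level of the lowest replication gene the shares were 26.7% and 31.5%. WDHD1, the adaptor that ties polymerase alpha to the helicase, had 53.8 and 56.6 CPM in untreated cells, 35.6 and 34.1 with indisulam, 41.6 and 52.1 with SPHINX31, and 26.9 and 27.8 with the combination. Its values stepped down without overlap from untreated cells to indisulam to the combination (log2 fold change -0.66, SE 0.0851, and -1.02, SE 0.0862). CLSPN (claspin), which relays the ATR checkpoint signal to CHK1, had 25.6 and 29.2 CPM in untreated cells, 19.4 and 18.5 with indisulam, 17.2 and 23.2 with SPHINX31, and 13.4 and 13.9 with the combination. All its treated libraries lay below the untreated ones (log2 fold change -0.53, SE 0.111, with indisulam and -1.01, SE 0.113, with the combination). TIMELESS, which travels with the fork in a pair with TIPIN, was called lower with indisulam (-0.17), but not without any 1 of the untreated (-0.20 and -0.13) or indisulam libraries (-0.19 and -0.14), and was lower with the combination (-0.24, adjusted p = 0.00294). TIPIN stood at -0.11 with indisulam and was called lower with the combination (-0.32), but not without untreated replicate 2 (-0.22) or combination replicate 1 (-0.27).

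Among the genes for chromatin behind the fork, ASF1B, a histone H3-H4 chaperone of dividing cells, had 43.9 and 44.3 CPM in untreated cells, 28.4 and 29.7 with indisulam, 35.6 and 38.9 with SPHINX31, and 22.0 and 22.3 with the combination. The 4 groups did not overlap, and the log2 fold changes were -0.60 (SE 0.0613, adjusted p = 4.54e-06) with indisulam and -0.99 (SE 0.0623, adjusted p = 3.80e-08) with the combination. CHAF1B, a subunit of chromatin assembly factor 1, was called lower with indisulam (-0.24), but not without untreated replicate 2 (-0.21) or indisulam replicate 2 (-0.21), and was lower with the combination (-0.34, SE 0.0747). Its large partner CHAF1A stood at 0.07 and -0.08, UHRF1, which guides maintenance of DNA methylation, at -0.12 and -0.15, and SLBP, which binds histone mRNA, at 0.05 and -0.07, none of them called.

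**Figure D2:**
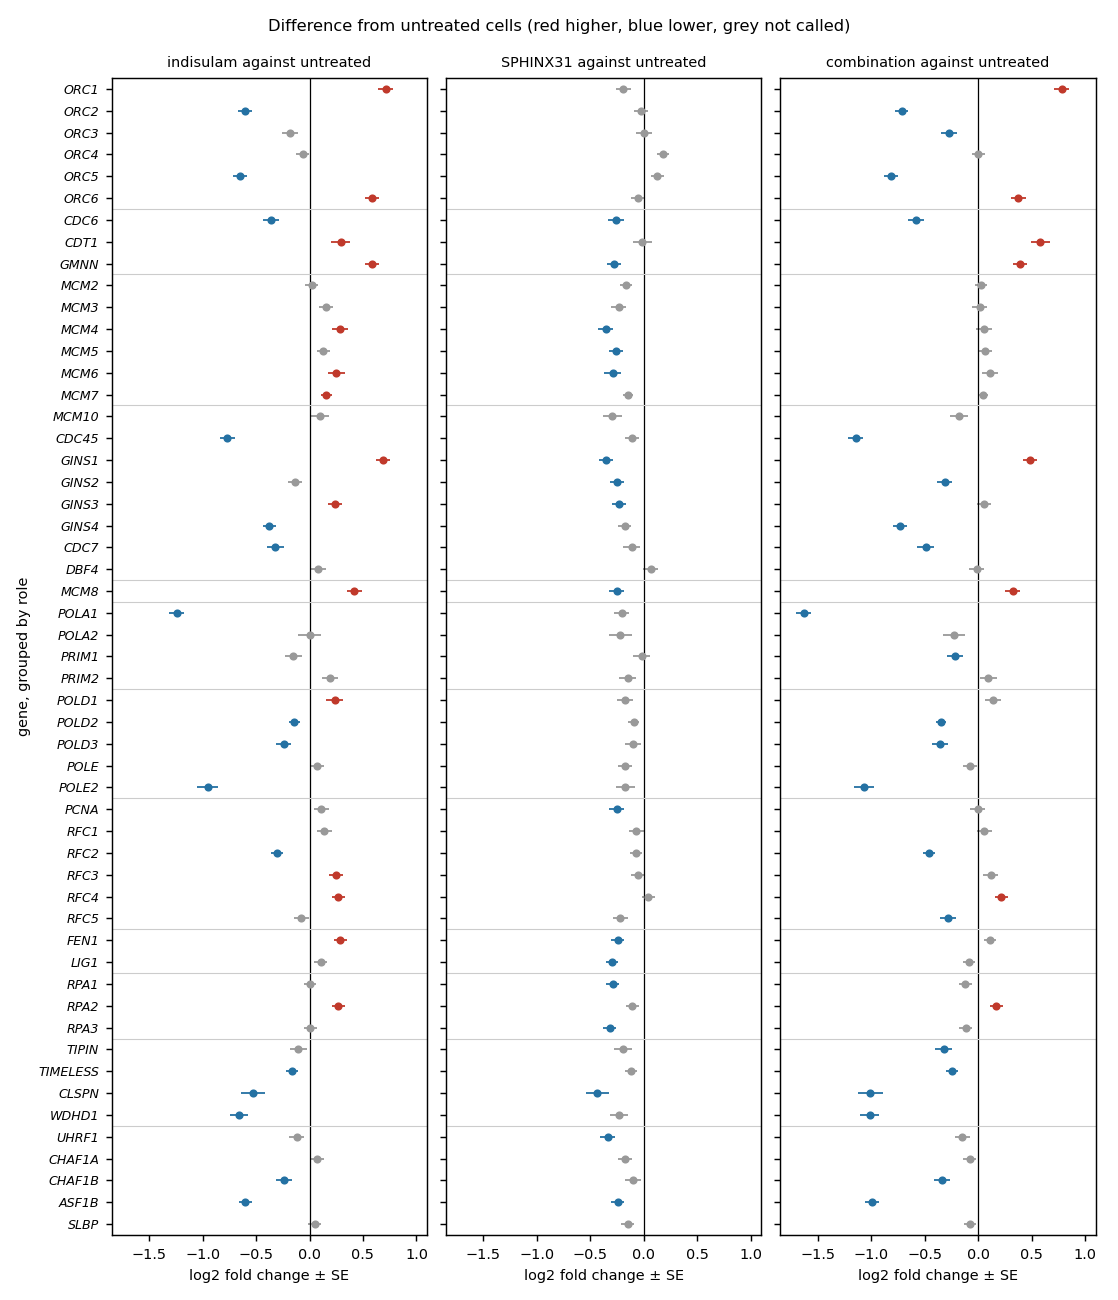
Log2 fold change with its SE (edgeR, 2 libraries a group) of each replication gene against untreated cells, for indisulam, SPHINX31 and the combination, grouped by role. Red points were called higher, blue points lower and grey points not called: 15 red and 16 blue with indisulam, 17 blue and no red with SPHINX31, and 8 red and 21 blue with the combination.

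**Figure D3:**
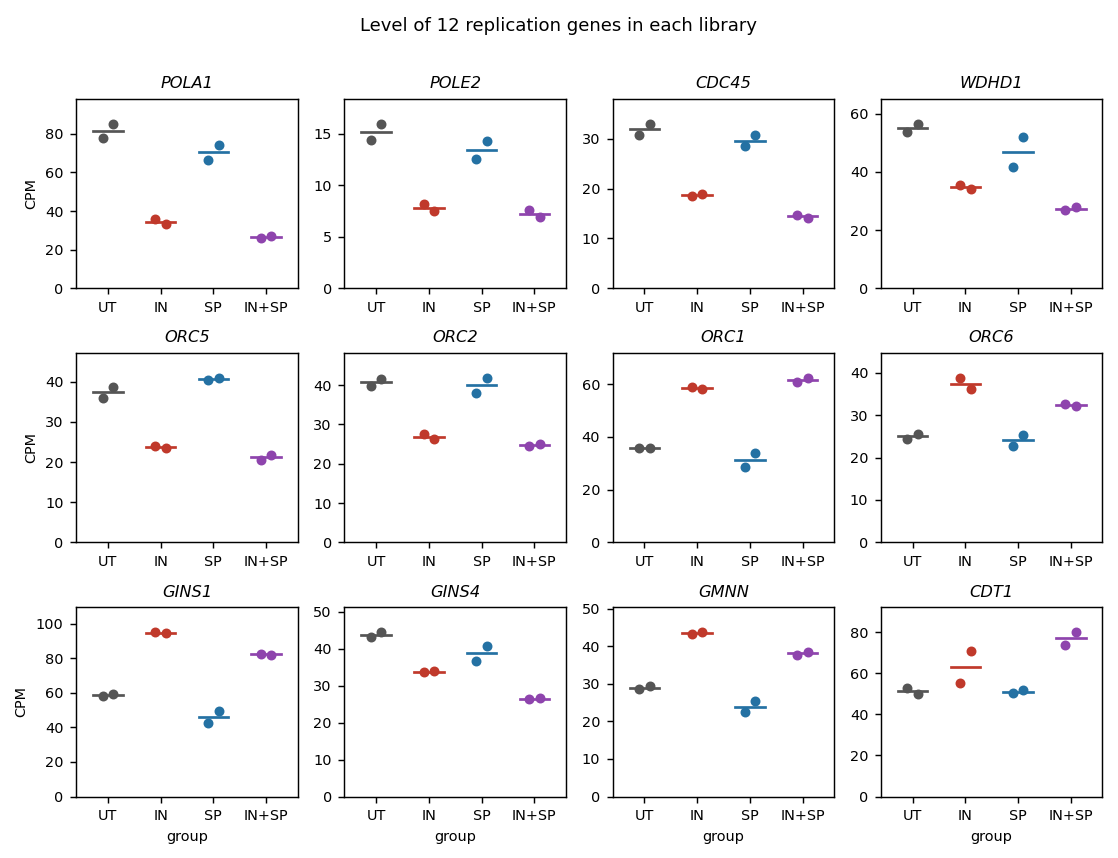
CPM of 12 replication genes in each library (points) with the mean of each group (line), for untreated cells (UT), indisulam (IN), SPHINX31 (SP) and the combination (IN+SP), on axes that start at 0. POLA1 falls from 77.9 and 85.3 to 25.8 and 26.9 in the combination, ORC1 and GINS1 are high in both groups with indisulam, and the 2 indisulam points of CDT1 lie far apart at 55.5 and 70.7.

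The promoters of the 3 genes most lowered and the 3 most raised by indisulam, among those with an entry in the RefSeq promoter table (GRCh38.p14), are shown because these 6 genes mark the ends of the split within the machinery. Each runs 5′ to 3′ on the gene's own strand, from 250 bases before to 50 bases after the RefSeq gene start, which need not be the GENCODE start, and capitals mark matches to an E2F motif. Windows of POLA1 (chrX:24693668-24693967, plus strand), POLE2 (chr14:49688165-49688464, minus strand) and CDC45 (chr22:19479670-19479969, plus strand) come first, then those of ORC1 (chr1:52404374-52404673, minus strand), GINS1 (chr20:25407423-25407722, plus strand) and GMNN (chr6:24774687-24774986, plus strand).
POLA1: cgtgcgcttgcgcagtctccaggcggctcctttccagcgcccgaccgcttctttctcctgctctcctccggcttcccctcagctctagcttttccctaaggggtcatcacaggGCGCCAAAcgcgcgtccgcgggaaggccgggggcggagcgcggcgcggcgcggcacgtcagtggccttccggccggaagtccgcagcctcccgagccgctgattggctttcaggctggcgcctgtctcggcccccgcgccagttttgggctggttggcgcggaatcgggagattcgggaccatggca
POLE2: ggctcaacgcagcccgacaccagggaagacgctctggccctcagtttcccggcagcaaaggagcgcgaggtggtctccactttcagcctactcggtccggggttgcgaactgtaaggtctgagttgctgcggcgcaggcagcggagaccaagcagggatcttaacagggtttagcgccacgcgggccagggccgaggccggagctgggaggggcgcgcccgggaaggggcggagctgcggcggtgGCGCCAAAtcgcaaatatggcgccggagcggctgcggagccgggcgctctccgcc
CDC45: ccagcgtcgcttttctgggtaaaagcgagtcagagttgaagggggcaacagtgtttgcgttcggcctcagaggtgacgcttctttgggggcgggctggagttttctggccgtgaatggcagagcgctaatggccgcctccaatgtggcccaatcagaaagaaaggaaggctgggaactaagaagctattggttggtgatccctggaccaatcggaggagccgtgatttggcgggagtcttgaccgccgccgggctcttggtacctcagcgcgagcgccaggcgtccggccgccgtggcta
ORC1: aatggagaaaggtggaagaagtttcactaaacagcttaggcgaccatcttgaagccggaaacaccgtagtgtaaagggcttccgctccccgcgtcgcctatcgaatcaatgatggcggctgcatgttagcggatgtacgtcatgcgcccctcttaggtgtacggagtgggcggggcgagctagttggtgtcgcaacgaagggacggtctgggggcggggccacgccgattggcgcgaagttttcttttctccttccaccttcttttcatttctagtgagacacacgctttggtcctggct
GINS1: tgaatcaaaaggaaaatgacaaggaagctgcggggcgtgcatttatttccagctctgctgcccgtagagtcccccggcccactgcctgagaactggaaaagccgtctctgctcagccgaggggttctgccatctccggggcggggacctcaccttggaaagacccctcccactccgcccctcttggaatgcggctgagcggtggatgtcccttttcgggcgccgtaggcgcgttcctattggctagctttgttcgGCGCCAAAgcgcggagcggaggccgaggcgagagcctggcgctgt
GMNN: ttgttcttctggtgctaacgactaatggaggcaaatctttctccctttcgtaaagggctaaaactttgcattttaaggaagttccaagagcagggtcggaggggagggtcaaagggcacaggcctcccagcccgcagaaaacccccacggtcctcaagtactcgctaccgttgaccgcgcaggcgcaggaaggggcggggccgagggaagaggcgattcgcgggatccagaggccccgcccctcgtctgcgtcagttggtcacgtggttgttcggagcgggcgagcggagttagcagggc

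The motifs searched, on both strands, were the E2F forms TTTCCCGC, TTTCGCGC, TTTGCCGC and TTTGGCGC, the cell cycle homology region (CHR) forms TTTGAA and TTTAAA, and CCAAT. POLA1 carried TTTGGCGC on the minus strand 137 to 130 bases before its start, POLE2 from 5 bases before to 3 after, and GINS1 6 to 13 bases after. CDC45, ORC1 and GMNN held no E2F match in this window, and CDC45 held 4 CCAAT matches. No matches of different motifs overlapped in these 6 windows. Of the 47 replication genes with a promoter entry, 42.6% held an E2F match, compared with 3.33% of all 27305 promoters of the same length and 5.005% of the promoters of tested genes. CCAAT was found in 57.4% against 35.7% of all promoters and 36.4% of those of tested genes. A CHR form was found in 2 of the 47, against 24.3% of all promoters and 16.4% of those of tested genes. By direction with indisulam, an E2F match stood in 7 of the 13 higher, 4 of the 14 lower and 9 of the 20 uncalled genes with an entry. An E2F match was thus found among genes called higher and among genes called lower, and this difference was not tested.

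Other features of the genes overlapped between the directions. The main transcript had a median of 14 exons in the 53 genes and 9 in all tested protein-coding genes. The median was 10 exons in the 15 genes higher with indisulam, 14 in the 16 lower and 15.5 in the 22 not called. Across the 53 genes, which share libraries and are not independent, exon number and the log2 fold change with indisulam had a Spearman's rho of -0.25 (-0.15 over 14010 protein-coding genes). The genes lie on 20 chromosomes, with at most 6 on any one.

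SPHINX31 alone lowered replication genes and raised none by the test. 17 of the 53 were called lower and 0 higher, where 3.67% of all tested genes were called lower and 4.94% higher, and at or above the level of the lowest replication gene 5.38% lower. With library totals alone in place of TMM, 11 were lower and 1 higher. The median log2 fold change was -0.18 over the 53 genes, 48 of which were negative, and -0.01 over all genes. Both SPHINX31 libraries lay below both untreated ones in 39 genes, where 27.1% of all genes did so. The 17 were CDC6 and GMNN of licensing, MCM4, MCM5 and MCM6 of the helicase ring, GINS1, GINS2 and GINS3, MCM8, PCNA, FEN1 and LIG1 of clamp and Okazaki fragment processing, RPA1 and RPA3, CLSPN, UHRF1 and ASF1B. No ORC subunit and no DNA polymerase or primase subunit was among them. Every polymerase and primase subunit still had a negative log2 fold change. Their medians were -0.18 for polymerase alpha-primase and -0.17 for polymerases delta and epsilon, while that of the ORC subunits was -0.01. The number of calls depended on which libraries were kept. SPHINX31 replicate 1 was lower than replicate 2 in 52 of the 53 genes (median log2 difference -0.16, whereas 52.0% of all genes were lower in replicate 1), and against the untreated mean 51 genes were lower in replicate 1 and 41 in replicate 2. In the other groups replicate 1 was lower in 41 of the 53 genes for untreated cells, 36 for the combination and 20 for indisulam. The shares of all genes there were 50.7%, 48.9% and 48.5%, and the members' median log2 differences were -0.05, -0.02 and 0.02. Without SPHINX31 replicate 1, 2 genes were called lower, and 41 still had a negative log2 fold change (median -0.10), while 3.62% of all tested genes were called in either direction, compared with 8.61% with all libraries. Without SPHINX31 replicate 2 the count was 26 (median -0.26) and the share of all genes 7.96%. Without untreated replicate 1 the count was 3 and the share 2.75%, and without untreated replicate 2 they were 2 and 2.95%. The medians of the 53 genes without these untreated libraries were -0.19 and -0.16. No gene kept its call under every alternative tried.

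**Figure D4:**
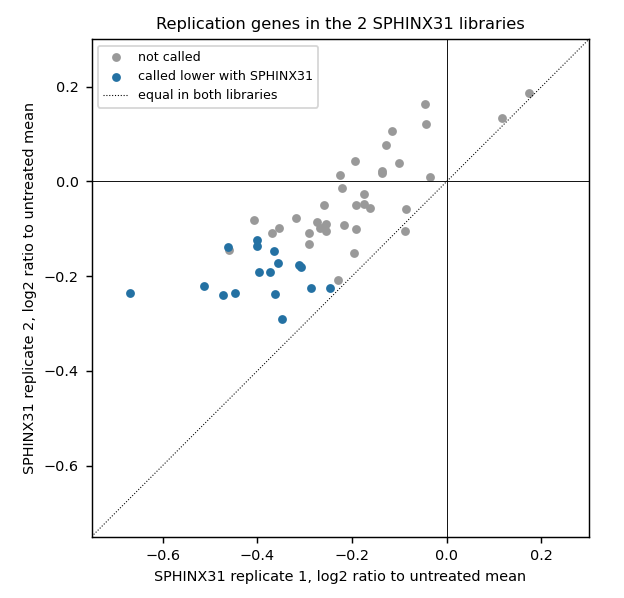
Each replication gene's log2 ratio to the mean of the untreated libraries in SPHINX31 replicate 1 (horizontal) and replicate 2 (vertical), with blue for the 17 genes called lower. 52 of the 53 points lie above the dotted line of equality, so replicate 1 was the lower library, with medians of -0.26 in replicate 1 and -0.10 in replicate 2.

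The genes with the largest decrease with SPHINX31 were each lower in replicate 1 than in replicate 2, RPA3 by little. CLSPN, given above, had 17.2 CPM in replicate 1 and 23.2 in replicate 2 (log2 fold change -0.43, adjusted p = 0.0262). Its call was lost without SPHINX31 replicate 1 (-0.24) or untreated replicate 2 (-0.34). MCM4 had 179 and 220 (-0.36, adjusted p = 0.00836), and GINS1 42.3 and 49.7 (-0.35, adjusted p = 0.00577). Both lost their call without untreated replicate 2 (-0.35 and -0.34). UHRF1 had 51.5 and 49.1 CPM in untreated cells, 44.8 and 47.9 with indisulam, 36.9 and 42.7 with SPHINX31, and 46.6 and 44.3 with the combination, so that its SPHINX31 libraries were the lowest (-0.34, adjusted p = 0.0106). RPA3, the smallest RPA subunit, had 36.0 and 33.9 CPM in untreated cells, 33.9 and 36.4 with indisulam, 27.5 and 28.5 with SPHINX31, and 32.2 and 32.4 with the combination. The 2 SPHINX31 libraries of RPA3 lay close together and below all others (-0.32, SE 0.0620, adjusted p = 0.00665). LIG1, which seals Okazaki fragments, had 79.5 and 79.3 CPM in untreated cells, 84.8 and 85.8 with indisulam, 61.8 and 67.3 with SPHINX31, and 77.9 and 71.8 with the combination. Here, too, SPHINX31 gave the lowest libraries (-0.30, SE 0.0584, adjusted p = 0.00694). RPA1, the large RPA subunit, had 145 and 146 CPM in untreated cells, 145 and 147 with indisulam, 111 and 128 with SPHINX31, and 133 and 135 with the combination (-0.29, adjusted p = 0.00993). MCM6 had 115 and 115 CPM in untreated cells, 134 and 139 with indisulam, 83.3 and 104 with SPHINX31, and 123 and 125 with the combination (-0.29, adjusted p = 0.0356). Neither gene's SPHINX31 libraries overlapped with another group. Without SPHINX31 replicate 1 the values were -0.23 for UHRF1, -0.29 for RPA3, -0.24 for LIG1, -0.19 for RPA1 and -0.14 for MCM6, none called. Without untreated replicate 1 these 5 genes were not called either, at -0.30, -0.27, -0.29, -0.29 and -0.28, nor were LIG1 (-0.30), RPA1 (-0.29) and MCM6 (-0.30) without untreated replicate 2. MCM6 also lost its call without combination replicate 1 or 2 (-0.29 for both), libraries that enter this comparison through the shared estimate of spread.

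Adding SPHINX31 to indisulam lowered 7 of the 53 genes and raised 0, against 4.32% and 3.17% of all tested genes called lower and higher. At or above the level of the lowest replication gene these shares were 7.02% and 4.12%. The median was -0.14 over the 53 genes, 49 of which were negative, and 0.00 over all genes. The 7 were CLSPN (log2 fold change of the combination against indisulam -0.48, SE 0.116), POLA1 (-0.39, SE 0.0721), ASF1B (-0.39, SE 0.0635), CDC45 (-0.37, SE 0.0716), GINS4 (-0.35, SE 0.0636), WDHD1 (-0.35, SE 0.0877) and POLD2 (-0.20, SE 0.0490). As the values above show, both combination libraries of each lay below both indisulam libraries. That was so in 42 of the 53 genes and in 25.5% of all genes, so it does not set these 7 apart. All 7 were also called lower with indisulam alone against untreated cells. The 2 genes called in every alternative were ASF1B and GINS4. The count was 3 without combination replicate 1 and 3 without combination replicate 2, where 3.27% and 2.63% of all tested genes were called, compared with 7.50% with all libraries, and the medians were -0.12 and -0.14. Without either SPHINX31 replicate it was 15 (8.44% of all genes without replicate 1 and 8.45% without replicate 2). Without combination replicate 1 the calls of POLA1 (-0.35), CLSPN (-0.44), WDHD1 (-0.32) and POLD2 (-0.19) were lost, and without combination replicate 2 those of CDC45 (-0.35), CLSPN (-0.51), WDHD1 (-0.38) and POLD2 (-0.21). Without indisulam replicate 1 those of CLSPN (-0.44) and WDHD1 (-0.32) were lost, and POLD2 also lost its call without untreated replicate 2 (-0.20) or indisulam replicate 2 (-0.16). With library totals alone in place of TMM, 6 genes were lower and 1 higher, and 65.4% of all calls were higher, compared with 42.3% with TMM.

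**Figure D5:**
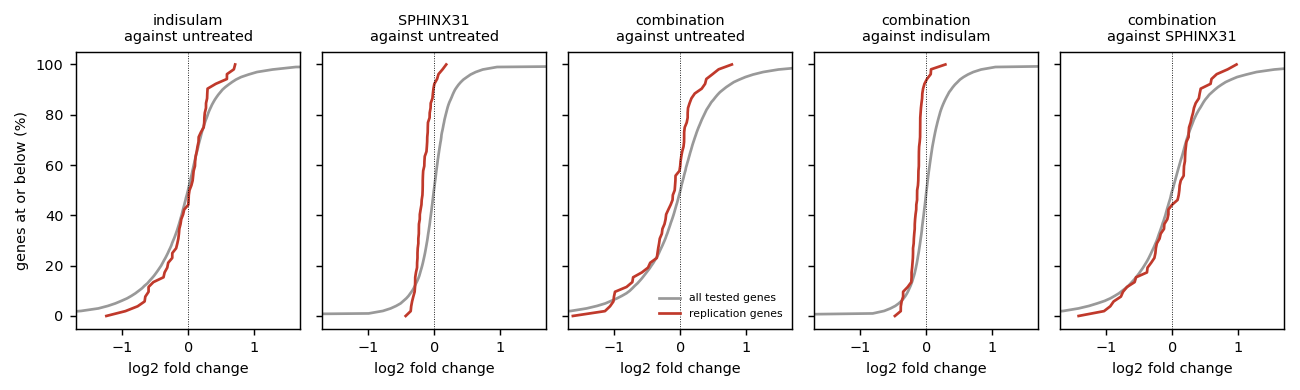
Cumulative share of genes (percent) at or below each log2 fold change, for the 53 replication genes (red) and all tested genes (grey), in 5 comparisons. With SPHINX31 and with the combination against indisulam the red line lies left of the grey one except in the lowest part, with medians of -0.18 and -0.14, while with indisulam the lines cross near 0.

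Set against SPHINX31 alone, the combination showed 24 genes higher and 17 lower, where 23.4% and 26.5% of all tested genes were called, and the median was 0.11 over the 53 genes and 0.00 over all. At or above the level of the lowest replication gene the shares were 26.5% higher and 32.5% lower. All 6 genes of the helicase ring were higher, from 0.19 for MCM7 to 0.41 for MCM4, as were all 3 RPA genes and both FEN1 and LIG1. The largest differences upward were in ORC1 (0.97, SE 0.0697) and GINS1 (0.84, SE 0.0665), and downward in POLA1 (-1.42, SE 0.0708) and CDC45 (-1.04, SE 0.0698). SPHINX31 replicate 1 was low across the list, and without it 14 genes in place of 24 were called higher. Of the genes named here, MCM2 (0.11), MCM3 (0.12), RPA1 (0.07), RPA3 (0.17) and LIG1 (0.15) were not called then. Without combination replicate 2, MCM2 (0.18), MCM3 (0.23), RPA1 (0.16) and RPA3 (0.20) were not called, nor were RPA1 (0.19) and LIG1 (0.16) without combination replicate 1.

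Whether the combination differed from the sum of both single treatments on the log2 scale was tested as an interaction. 0 of the 53 genes passed, and 0 of all tested genes did (0% of 18661; edgeR's quasi-likelihood test, 1584 genes at an unadjusted p under 0.05). 8 of the 53 had an unadjusted p under 0.05, and the smallest adjusted p was 0.428, for ORC5 (-0.29, SE 0.0890). DESeq2 called 0 of the 53 and 29 genes in all. The interaction ranged from -0.29 for ORC5 to 0.31 for UHRF1 (SE 0.101), and its SE was 0.0984 for POLA1 (-0.18) and 0.0974 for CDC45 (-0.27). The lack of a call does not show that the treatments added up.

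Other genes of the pathway were read from a second list of 28, among them factors of origin firing, polymerase accessory subunits and RNase H2. With indisulam 7 were higher and 8 lower, with SPHINX31 1 was higher and 6 lower, with the combination 3 were higher and 16 lower, and against indisulam alone the combination lowered 6. Over all tested genes the shares called higher and lower were 20.1% and 23.5% with indisulam, 4.94% and 3.67% with SPHINX31 and 23.8% and 26.3% with the combination, and 4.32% were lower in the combination than with indisulam alone. The indisulam counts of this list thus lay near those of all genes, and its median log2 fold change was -0.05 with indisulam, -0.13 after SPHINX31 alone, -0.23 for both agents and -0.12 for the combination against indisulam. Of its members, TOPBP1, which activates ATR and helps load CDC45, was lower with indisulam (-0.29, SE 0.0758) and further with the combination (-0.61, SE 0.0763). DNMT1, the maintenance DNA methyltransferase, was lower with both (-0.63 and -0.68). Of 10 E2F and DP factors, 3 were higher and 1 lower with indisulam, including E2F1 (0.30, SE 0.0637) and E2F8 (0.41, SE 0.0941), and with the combination 2 were higher and 3 lower, to be read against the same shares of all genes. Of 18 markers of G2 phase and mitosis, 4 were higher and 4 lower with indisulam, 8 were lower with SPHINX31, and 1 was higher and 13 lower with the combination. These counts, too, are to be read against the shares of all genes given above. The median log2 fold changes of the markers were -0.04, -0.20 and -0.33, beside 0.02, -0.18 and -0.09 for the 53 replication genes. For the combination against indisulam, 15 of the 18 markers were lower and 0 higher. Their median there was -0.29, beside -0.14 for the 53 replication genes. The summed level of the 18 markers was 3085 to 3325 CPM in untreated cells, 2896 to 3071 with indisulam, 2687 to 2904 with SPHINX31 and 2418 to 2423 with the combination. TOP2A, the topoisomerase that untangles replicated chromosomes, was lower with indisulam (log2 fold change -0.94, SE 0.0665) and with the combination (-1.46, SE 0.0674). Without TOP2A the summed level of the other 17 was 2469 to 2648 CPM in untreated cells, 2571 to 2719 with indisulam, 2147 to 2289 with SPHINX31 and 2176 to 2179 with the combination, so that it was lower in both groups with SPHINX31 but overlapped with untreated cells with indisulam alone. The part of these markers in the results above was not tested.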

How the data were processed

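RNA of A549 cells was measured in 8 libraries of polyadenylated RNA, prepared with a stranded kit. The deposited values were raw counts of reads on each Ensembl gene, which the authors made without normalization, and the submitters' processing notes name HISAT2 2.2.1, HTSeq and GRCh38. The strand setting and annotation are not given in the sources used here. Between 83.0% and 86.0% of the recorded reads were assigned to a gene, and rows for unassigned reads were left out.

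Symbols, exons and lengths came from GENCODE on GRCh38 (99.7% of tested genes had a symbol), and promoters from RefSeq (GRCh38.p14, 47 of 53 genes). Genes were filtered with filterByExpr, and groups were compared with edgeR 4.0.16 (TMM, quasi-likelihood test on all 8 libraries, 4 residual degrees of freedom, two-sided) in R 4.3.3, with Benjamini-Hochberg adjustment over all 18661 genes and a threshold of 0.05. The SE of a log2 fold change covers counting error and the spread between libraries. The lowest count of a replication gene in a library was 263 (POLA2). Tests were checked on simulated data. Of 50 genes given a log2 change of 0.25, 19 were called for indisulam and 4 for the interaction. At a change of 0.5 these numbers were 45 and 36 of 50, so that changes near 0.25 were often missed. Alternatives were RLE factors, library totals alone, DESeq2 1.42.0, other filters, only the libraries compared, offsets for GC content over 50 bins, a replicate block, a threshold of 0.1, and fits without each library in turn, where a lone library is assumed to vary like the other groups. Values in every library are given for the genes with the largest called changes, up to 8 in each direction and comparison. The genes and lists were chosen with earlier results of these data known.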

Additional observations from a re-analysis of the deposited data

How the results depend on the processing

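Of 2125 repeats of a called gene under an alternative, 1956 kept the direction and the call, 169 kept the direction without the call, and 0 turned. 21 of 31 genes with indisulam, 24 of 29 with the combination, 27 of 41 for the combination against SPHINX31, 2 of 7 for the combination against indisulam and 0 of 17 with SPHINX31 were called in every alternative. Leaving out each library gave 23 to 34 called genes with indisulam, 2 to 26 with SPHINX31, 26 to 32 with the combination, 3 to 15 for the combination against indisulam, 31 to 42 for the combination against SPHINX31 and 0 for the interaction. Offsets for GC content gave 26 called genes with SPHINX31, also with the replicate block, while the share of all genes called rose from 8.61% to 14.9% and 13.0%. For the combination against indisulam, where 7 were called, DESeq2 gave 13, keeping every gene with at least 1 count 14, fitting only the libraries compared 11, GC offsets 17, GC offsets with the replicate block 12 and an adjusted p under 0.1 16. The shares of all genes called were 10.9%, 5.39%, 7.14%, 12.3%, 10.9% and 11.9% in that order, compared with 7.50%. Each share is of the genes that fit tested, and those numbers differed. DESeq2 called 1390 of 12766 genes and the filter on 1 count called 1879 of 34831, compared with 1399 of 18661. The cause was not tested. Scaling by library totals alone moved the median over the 53 genes to -0.03 with the combination and to -0.09 for the combination against indisulam, and leaving out indisulam replicate 2 moved the latter to -0.16. Under this scaling the calls over all genes with SPHINX31 were 1341 higher and 515 lower, compared with 921 and 685. Equal replicate numbers mark no stated pairing, and the deviations of same-numbered libraries correlated from -0.61 to 0.48 between groups over 8228 genes. Under a replicate block 33 genes were called with indisulam, 14 with SPHINX31, 29 with the combination, 7 for the combination against indisulam, 40 for the combination against SPHINX31 and 0 for the interaction. With 2 technical replicates a group, small changes were the least secure: the 10 genes whose indisulam call was lost under some alternative had log2 fold changes between -0.24 and 0.29.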
